A study of Mus musculus with 12 samples.

Results

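Autophagy encloses a portion of cytoplasm in a double membrane, the autophagosome, and delivers it to the lysosome. The 8 genes described here encode proteins of the core machinery that builds this membrane: *Ambra1*, *Becn1*, *Atg14*, *Atg9a*, *Atg7*, *Atg3*, *Atg5* and *Map1lc3a*. They were taken by name, with earlier results of these data known, from the 770 genes of the NanoString nCounter Neuroinflammation panel, a hybridization assay that counts single RNA molecules by a color code and needs no amplification step, and all 8 were found on it. RNA came from fixed microglia, the resident macrophages of the central nervous system (CNS), of C57B6 mice, and each sample joined the CNS of a male and a female. From aged mice (over 80 weeks by the labels) came 4 samples of microglia with high ERK1/2 phosphorylation, P-ERK1/2 High or simply High in what follows, and 4 with low phosphorylation, P-ERK1/2 Low or Low. The remaining 4 held adult microglia (12 to 20 weeks), the last not divided by ERK1/2 phosphorylation. Microglia were enriched with CD11b beads, and the aged cells were separated by staining of ERK1/2 phosphorylated at Thr202/Tyr204. By the methods, the sorted cells were YFP+, CD45-intermediate and Ly6G-, with YFP carried at the *Cx3cr1* locus that also drives the inducible Cre recombinase of the study. The labels call mice and cells untreated, while the study's legend places both ages after tamoxifen, the drug that activates this Cre, given recently before sampling in the adult mice and long before it in the aged ones. Whether High and Low samples came from the same mice, and the *Ulk1* genotype of these samples, are not given in the sources used here. Adult sample 11 was marked by the authors as excluded for poor quality, so adult values rest on 3 samples, and its values are given apart.

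The 8 proteins act in sequence. AMBRA1, Beclin 1 (*Becn1*) and ATG14 belong to the lipid kinase complex that marks the site where the membrane forms, and ATG9A is a transmembrane protein whose vesicles bring lipid to it. The membrane then grows while LC3 proteins, of which *Map1lc3a* encodes one, are attached to its lipids. ATG7 is the activating enzyme of this conjugation, ATG3 hands LC3 to the lipid, and ATG5, joined to ATG12, sets where that happens. In microglia the pathway is known for the breakdown of ingested material and for restraint of inflammatory signaling.

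The deposited value of a gene, called signal here, is its count multiplied by a factor of its sample that sets the geometric mean of 13 housekeeping genes equal in all samples, with no background subtracted. A difference is therefore relative to those genes, and levels of different genes are not compared, since their probes differ. Counts recovered from the signal totalled 650965 to 1539936 per High sample, 123798 to 157209 per Low sample and 137980 to 326575 per adult sample without sample 11, while the positive control probes, added in equal amount, had geometric means of 954 to 1460 counts in these 11 samples. Background was the mean plus 2 SD of the 8 negative control probes of a sample. Of the 8 microglial marker genes checked, all were above background in every High sample and 2 in every Low sample, and *P2ry12* and *Gpr34* were above it in no Low sample. Their summed signal was 2851 to 3544 in High, 3371 to 3692 in Low and 3487 to 3801 in adult samples. As a share of all counts the 3 groups were apart, at 0.276% to 0.485% in High, 0.727% to 0.803% in Low and 0.999% to 1.11% in adult samples.

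When High was compared with Low microglia, the conjugation genes *Atg3*, *Atg5* and *Map1lc3a* and the vesicle gene *Atg9a* rose by 2.9- to 5.2-fold in signal as deposited. *Becn1* lay higher by less than the fold limit used for a call, *Atg14* was at background in every Low sample, and *Atg7* and *Ambra1* overlapped between the groups. *Atg7* acts before *Atg3* in the same reaction, and its values in Low lay near background.

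As deposited, *Atg3* showed the largest difference of the 8. Its signal was 1982, 3084, 2145 and 2426 in High samples 2, 5, 7 and 8, against 501, 536, 377 and 427 in Low samples 3, 6, 9 and 12 and 417, 543 and 544 in adult samples 1, 4 and 10. Every High sample lay above every other sample, and Low and adult samples overlapped. The mean was 2409 ± 486 (SD, n = 4) in High and 460 ± 71.9 (SD, n = 4) in Low, a log2 difference of 2.38 (SE 0.23, limma adjusted p = 1e-05), or 5.20-fold, which ranked 37 of the 770 genes by size of increase.

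*Map1lc3a* varied least among the High samples. It was at 642, 644, 558 and 560.01 in High, at 166, 165, 187 and 217 in Low and at 157, 149 and 161 in adult samples. The 3 groups did not overlap, in the order High, Low, adult. Low and adult were apart by a small margin, with 164.77 in Low sample 6 and 160.6 in adult sample 10. In that Low sample 1 count was worth 3.51 in signal. With background subtracted the log2 difference between Low and adult was -0.11. The log2 difference between High (601 ± 48.3, SD, n = 4) and Low (184 ± 24.6, SD, n = 4) was 1.71 (SE 0.20, limma adjusted p = 4.1e-05).

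*Atg5* was at 689, 1273, 844 and 940.1 in High samples and at 305, 344, 297 and 275 in Low samples. In adult samples it was at 231, 259 and 306, a range that overlapped Low and lay below all High samples. High exceeded Low by a log2 difference of 1.58 (SE 0.23, limma adjusted p = 0.00021), from means of 937 ± 247 and 305 ± 28.6 (SD, n = 4 each).

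*Atg7* differed from its partners in the reaction. Its signal was 118, 284, 156 and 181 in High, 156, 193, 139 and 176 in Low and 149.75, 175 and 180.37 in adult samples. The lowest and the highest of these 11 values were both in High samples, and all 3 groups overlapped. The log2 difference between High and Low was 0.09, with a 95% confidence interval of -0.51 to 0.69 (limma adjusted p = 0.80). The Low values came from 43 to 55 counts, near a background of 25.9 to 31.3, and with background subtracted the difference was 1.09, which was not called.

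Among the genes of the earlier steps, *Atg9a* had the widest spread. It was at 303, 843, 245 and 380.09 in High samples, where sample 5 held more than the others, and at 129, 147, 112 and 152 in Low samples. Adult samples had 72.6, 104 and 101.3, below all Low samples, and adult sample 1 was not above background. The log2 difference between High and Low was 1.54 (SE 0.34, limma adjusted p = 0.0029). Without High sample 5 it was 1.18. A plain test with unequal variances did not call it (adjusted p = 0.059).

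*Becn1* was at 688, 1184, 677 and 993 in High and at 403, 529, 455 and 459 in Low, with 358, 429 and 423 in adult samples. High lay above both other groups without overlap, and Low and adult overlapped. The log2 difference between High and Low was 0.90 (SE 0.24, limma adjusted p = 0.008), short of the fold limit, and it passed that limit without High sample 2 (1.01) or 7 (1.02).

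*Atg14* was the only member low enough to reach background in a whole group. Its signal was 94.95, 104, 153 and 78.6 in High, 54.2, 73.6, 50.8 and 36.9 in Low and 118, 136 and 101.3 in adult samples. The Low values came from 16, 21, 19 and 9 counts, each below the background of its sample, while all High and kept adult samples exceeded theirs. The measured log2 difference between High and Low was 0.98 (SE 0.28, limma adjusted p = 0.0101), and against the background of the Low samples, 69.2 to 117 in signal, High was at least 1.07-fold higher. This bound rests on Low sample 9, which had the lowest background, and without it the bound fell to 0.952, so that no direction is assured.

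*Ambra1* was at 130.25, 273, 120.15 and 151 in High samples, at 173, 252, 217 and 176 in Low samples and at 213, 221 and 242 in adult samples. High sample 5 held the highest of these 11 values and the other 3 High samples the lowest 3, so the groups overlapped through that sample. The log2 difference between High and Low was -0.34 with a 95% confidence interval of -0.96 to 0.28 (limma adjusted p = 0.33), and it was -0.60 without High sample 5.

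**Figure D1:**
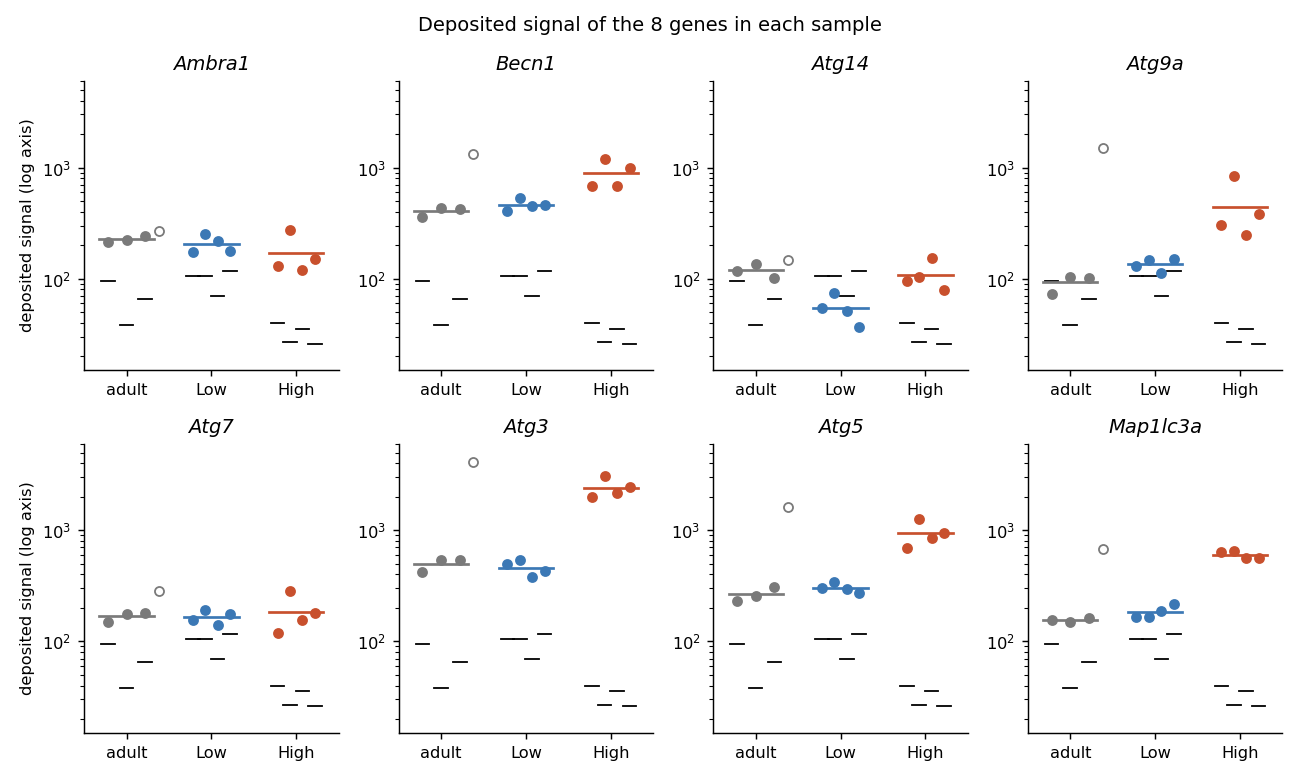
Signal (log axis) of each gene in each sample of adult, Low and High microglia; filled points are samples in order of sample number, colored lines group means, short black lines the background of the sample on the signal scale, and the open circle adult sample 11, left out of the means. High samples of *Atg3*, *Atg5*, *Map1lc3a*, *Atg9a* and *Becn1* lie above all Low and kept adult samples, and the 4 Low points of *Atg14* lie below their background lines.

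High sample 5 was the highest of the 4 High samples for 7 of the 8 members, all but *Atg14*, and for 47.3% of all genes. It also had the largest total, 1539936 counts. Over the 7 members other than *Map1lc3a*, the highest High value was 1.56 to 3.44 times the lowest, against 1.15 for *Map1lc3a*.

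By the thresholds of the study, p under 0.01 and a log2 difference beyond 1, limma called 4 of the 8 members higher in High (*Atg3*, *Map1lc3a*, *Atg5* and *Atg9a*) and 0 lower. Over the whole panel it called 217 of 770 genes higher (28.2%) and 74 lower (9.61%). At an adjusted p under 0.05 with no fold limit, 6 of 8 members passed, all with the higher measured values in High and with *Atg14* at background in Low, where 52.2% of all genes passed. Groups did not overlap for the same 6 members and for 49.4% of all genes. The median log2 difference was 1.26 over the 8 members and 0.26 over all genes. The members' share of calls thus stood beside a background in which a large part of the panel differed, and nothing particular to the 8 genes is read from it. Of 7 marker lists for other cell types, 3 had summed signals that lay higher in every High sample than in every Low sample. The summed signal of 5 astrocyte genes was 1200 to 1925 in High and 546 to 792 in Low, that of 5 endothelial genes 436 to 1015 and 161 to 234, and that of 6 T and NK cell genes 239 to 974 and 90.3 to 146. Of these, 3, 3 and 1 genes were above background in every High sample and 2, 0 and 0 in every Low sample, where *Aldh1l1*, *Slc1a3*, *Cldn5*, *Pecam1*, *Cd3d* and *Cd3e* were above it in none. As a share of all counts, the astrocyte and endothelial sums were again apart, and that of T and NK cell genes overlapped (0.0258% to 0.0884% in High, 0.0178% to 0.0338% in Low). The oligodendrocyte share was lower in High (0.0228% to 0.0504%) than in Low (0.0574% to 0.0857%). In Low samples all 6 T and NK cell genes and 5 of 6 oligodendrocyte genes were above background in none. No background was subtracted from the shares, so they are not read as cell content. The summed signals of the other 4 lists overlapped, at 262 to 481 in High and 244 to 323 in Low for neurons, 236 to 368 and 291 to 393 for oligodendrocytes, 146 to 321 and 94.7 to 147 for B cells, and 359 to 654 and 418 to 543 for neutrophils and border monocytes. The part of these cell types in the members' differences was not tested. In such bulk RNA, fewer cells of a type and less RNA per cell cannot be told apart.

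**Figure D2:**
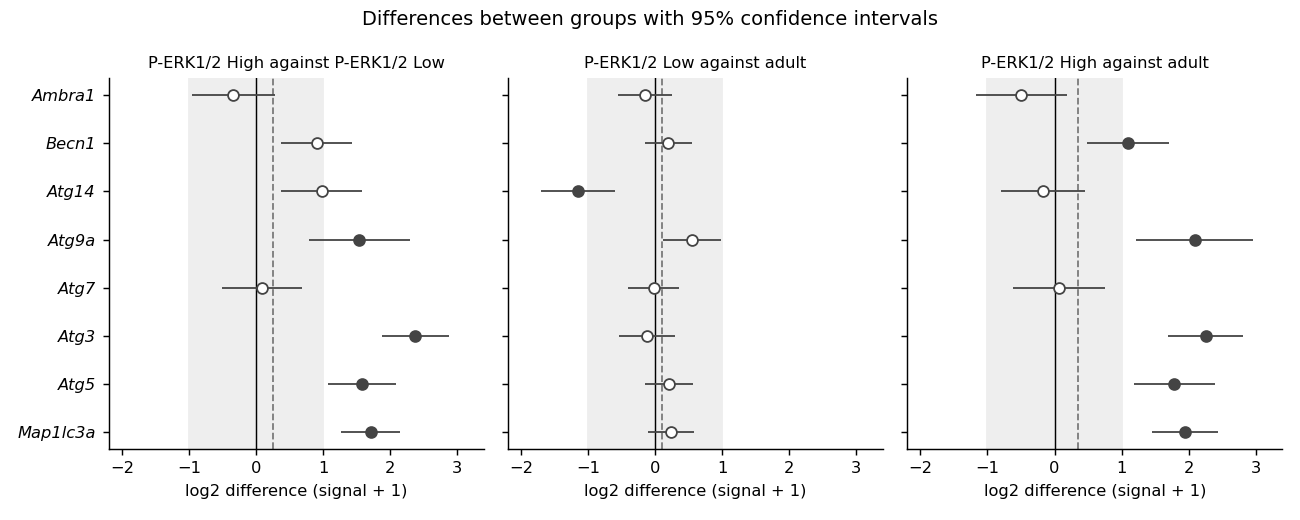
Log2 difference of signal + 1 for each gene in the 3 comparisons, with the first group minus the second; points are limma estimates, bars 95% confidence intervals, filled points the calls, the gray band the fold limit of 1 and the dashed line the median of all 770 genes. Filled points beyond 1, for 4 and 5 genes, stand in the comparisons with High, and *Atg14* is the filled point at -1.15 in Low against adult.

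The High samples held more counts than the Low and kept adult samples, and the size and the direction of a difference depended on how the samples were scaled. As deposited, the 13 housekeeping genes did not move together. *Supt7l* was higher in High by 3.34 and *Lars* lower by a log2 difference of -1.23, with a median of -0.52 over the 13. The size of the rise in *Supt7l* is uncertain, since it was above background in 1 of 4 Low samples. Scaling by the 6 most stable of the 13 moved the median of all genes to 1.02 and that of the members to 2.03, with 6 members called higher. All 6 of these housekeeping genes, *Lars* among them, were lower in High as deposited, from -0.52 for *Tada2b* to -1.23. Scaling to them therefore raises the differences of all genes. Scaling to the total of all genes moved the median of all genes to -0.76, left *Atg3* (1.35) as the only member called higher, and put *Ambra1* (-1.36) among the genes called lower, with *Becn1* at -0.12 and *Atg14* at -0.032. With no scaling, the median of all genes was 1.86, all 8 members were called higher, and *Ambra1* stood at 1.32 and *Atg7* at 1.75. When the background was subtracted from the counts, with a floor of 1 count, the median of all genes was 0.87 and 6 members were called higher. *Atg14* then stood at 4.05, which depends on the floor, *Atg9a* at 3.33, *Map1lc3a* at 2.80, *Atg3* at 2.71, *Atg5* at 2.11 and *Becn1* at 1.20, so the order of the members changed and *Atg3* was no longer the first. *Atg3* was called higher under each of the settings tried, and its difference ran from 1.35 to 4.36 over the scalings. Relative to the median of all genes, 6 of 8 members lay above it and *Ambra1* and *Atg7* below it under each of the 7 scalings. A factor moves all genes of a sample alike. Apart from quantile normalization and the added 1, this was therefore fixed in advance and is no sign of stability. With background subtracted 7 lay above it, with *Atg7* 0.22 above.

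**Figure D3:**
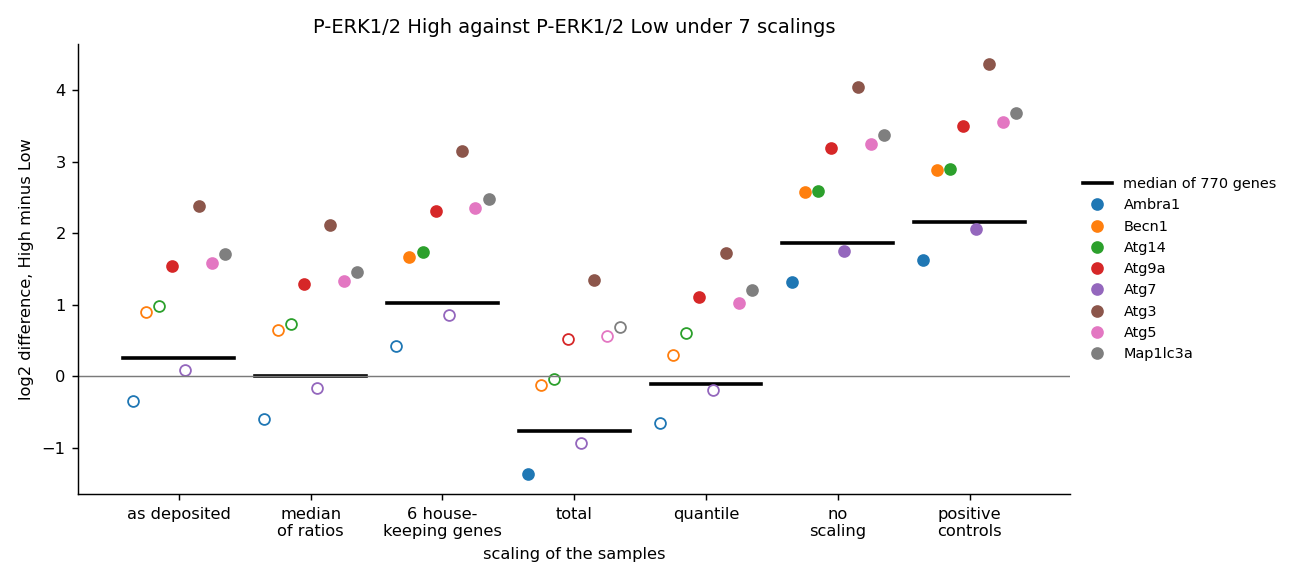
Log2 difference of each gene between High and Low (vertical axis) under 7 ways to scale the samples; points are the 8 genes, filled where called, and black bars the median of the 770 genes. The genes keep nearly the same order while the whole set moves with the black bar, from -0.76 with the total to 2.15 with the positive controls.

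A ratio of 2 genes within a sample does not depend on that sample's factor, apart from the 1 added before the logarithm, and so compares members whatever the scaling, though not whatever the background. Of the 28 pairs of members, the ratios of 17 did not overlap between High and Low, against 49% of all 296065 pairs of panel genes. For each of these 17 the exact two-sided permutation test over samples gave p = 0.0286, the smallest that 4 against 4 samples allow, not adjusted for the 28 pairs. *Atg7* over *Atg3* fell by 2.29 on the log2 scale from Low to High, and *Ambra1* over *Atg3* fell by 2.72. The ratio of *Atg9a* to *Atg7* was higher in High by 1.45 and that of *Becn1* to *Atg7* by 0.81. *Atg3* also rose beyond *Atg5*, by 0.79. As deposited, the members that rose could not all be told apart: *Atg5* over *Map1lc3a* differed by -0.13 (exact permutation p = 0.63), *Atg9a* over *Atg5* by -0.04 (p = 0.91) and *Atg9a* over *Map1lc3a* by -0.17 (p = 0.71). *Ambra1* over *Atg7* differed by -0.43 with overlap (exact permutation p = 0.057). Ratios with *Atg14* rest on Low values at background. Since no background was subtracted, ratios of members with few counts in Low (37 to 42 for *Atg9a*, 43 to 55 for *Atg7*, 47 to 70 for *Map1lc3a*, 43 to 81 for *Ambra1*) include a share of background, and the sizes and some directions of these changes in ratio depend on it. With background subtracted, 20 of the 28 ratios did not overlap, and the difference in *Becn1* over *Atg7* fell from 0.81 to 0.11, with overlap (exact permutation p = 0.66). *Atg9a* over *Atg5* turned to 1.22 without overlap (exact permutation p = 0.0286), and *Atg9a* over *Map1lc3a* turned to 0.53 with overlap (p = 0.23). *Atg7* over *Atg3* stood at -1.62, *Ambra1* over *Atg3* at -2.35, *Atg9a* over *Atg7* at 2.24 and *Atg3* over *Atg5* at 0.60, each without overlap.

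**Figure D4:**
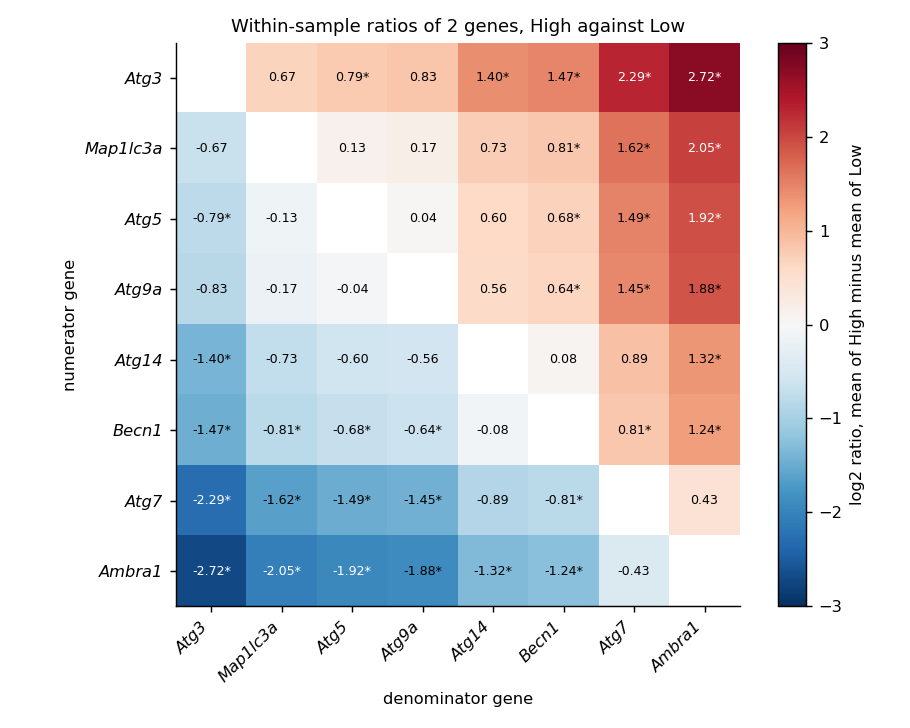
Change of the within-sample log2 ratio of 2 genes as deposited, mean of High minus mean of Low (n = 4 each), for each numerator (rows) and denominator (columns), with genes in order of their own difference; an asterisk marks ratios whose groups did not overlap. The columns of *Atg7* and *Ambra1* hold the largest values, the row of *Ambra1* the lowest, down to -2.72 over *Atg3*, and *Map1lc3a*, *Atg5* and *Atg9a* differ among themselves by 0.17 or less.

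Between Low microglia and the 3 kept adult samples, 1 of the 8 members was called, *Atg14*, which was lower in Low. Of all genes, 8.05% were called higher and 2.73% lower. Adult samples had 119 ± 17.5 (SD, n = 3) and Low samples 53.9 ± 15.1 (SD, n = 4), a measured log2 difference of -1.15 (SE 0.24, limma adjusted p = 0.0107). As the Low samples were at background, adult microglia were at least 1.20-fold higher, or 1.07-fold without Low sample 9. The call was lost without Low sample 12, the lowest, at -0.99. At an adjusted p under 0.05 *Atg14* was again the only member to pass, where 26.1% of all genes passed. Groups did not overlap for 3 members (*Atg14*, *Atg9a* and *Map1lc3a*) and for 36.5% of all genes. *Atg9a* had a difference of 0.55 (limma adjusted p = 0.066) and *Map1lc3a* of 0.23 (limma adjusted p = 0.29), both with the higher values in Low, and neither passed. The other 5 lay between -0.16 for *Ambra1* and 0.21 for *Atg5*, with overlapping groups. Their 95% confidence intervals reached from -0.56 to 0.56, which leaves room for changes of that size. The median log2 difference of the members was 0.08 and that of all genes 0.10. Of the summed marker signals, that of endothelium was lower in Low (161 to 234) than in adult samples (252 to 356), as was that of neutrophils and border monocytes (418 to 543 and 712 to 1065), and the other 5 lists of other cell types overlapped. Their part in these values was not tested.

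Between High microglia and the same 3 adult samples, 5 members were called higher, where 29.2% of all genes were called higher and 7.66% lower. The log2 difference was 2.25 for *Atg3* (SE 0.26, limma adjusted p = 9.1e-05), 2.09 for *Atg9a* (SE 0.40), 1.94 for *Map1lc3a* (SE 0.22), 1.79 for *Atg5* (SE 0.27) and 1.10 for *Becn1* (SE 0.28, limma adjusted p = 0.0082). With background subtracted the same 5 were called, at 2.45 for *Atg3*, 4.15 for *Atg9a*, 2.70 for *Map1lc3a*, 2.18 for *Atg5* and 1.31 for *Becn1*. The value of *Atg9a* then depends on the floor of 1 count, since adult sample 1 was not above background. These 5 were also those that passed an adjusted p under 0.05 and whose groups did not overlap, where 48.2% and 50.3% of all genes did so. *Becn1* lost its call under median-of-ratios scaling (0.72), quantile normalization (0.28), without High sample 5 (0.94) and without adult sample 1, where it stood at 1.01 with a p above the threshold. Quantile normalization also ended the call of *Atg5* (0.93) and put *Ambra1* (-1.04) among the genes called lower. *Atg14* (-0.17), *Atg7* (0.07) and *Ambra1* (-0.50) were not called, and each overlapped. With scaling to the total of all genes no member was called higher and these 3 were called lower, and *Becn1* turned to -0.32. With adult sample 11 added, 0 of the 8 were called by limma, and 2 had an unadjusted p under 0.05. The differences were then 1.49 for *Atg3*, 1.41 for *Map1lc3a*, 1.13 for *Atg5*, 1.09 for *Atg9a* and 0.66 for *Becn1*. This comparison shares its High samples with the first and its adult samples with the second, so the 3 sets of values are given side by side and are not independent of each other. Of the summed marker signals, those of astrocytes, endothelium, T and NK cells and B cells were lower in every kept adult sample (418 to 646, 252 to 356, 86.2 to 200.13 and 59.4 to 143) than in every High sample. The sum for neutrophils and border monocytes was higher, at 712 to 1065 in adult against 359 to 654 in High samples, and those for neurons and oligodendrocytes overlapped. As a share of all counts, the astrocyte sum (0.122% to 0.172% in adult, 0.159% to 0.175% in High) and the endothelial sum (0.0661% to 0.111% and 0.0498% to 0.139%) overlapped, as did those of T and NK cells (0.0227% to 0.0587% and 0.0258% to 0.0884%) and of B cells (0.0156% to 0.0433% and 0.0141% to 0.0439%). The oligodendrocyte share was higher in adult (0.072% to 0.112%) than in High samples (0.0228% to 0.0504%), and so was that of neutrophils and border monocytes (0.187% to 0.312% and 0.0326% to 0.0894%). In adult samples 5 of the 6 T and NK cell genes and all 4 B cell genes were above background in none. The same held for 3 of 6 oligodendrocyte genes and 3 of 6 genes of neutrophils and border monocytes. No background was subtracted from the shares, so neither overlap nor difference in them is read as cell content. The part of these cell types in the members' differences was not tested.

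By mean signal, High was the highest of the 3 groups for 6 members, and adult was the highest for *Atg14* and *Ambra1*. Neighboring groups in this order did not overlap at either step for *Atg9a* and *Map1lc3a*, for *Map1lc3a* by a small margin between Low and adult. For *Becn1*, *Atg3* and *Atg5* only the step to High was free of overlap, and for *Atg14* only the step down to Low. No step was free of overlap for *Atg7* and *Ambra1*.

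The other autophagy genes of the panel were counted from 4 lists set by step, each with the 8 genes left out. Initiation is switched on by the ULK1 kinase complex. Its genes *Ulk1* and *Rb1cc1*, which encodes the scaffold FIP200, were not called between High and Low. *Ulk1* had a signal of 108 ± 42.6 (SD, n = 4) in High, 140 ± 12.6 (SD, n = 4) in Low and 261 ± 37.8 (SD, n = 3) in adult samples. It was called lower in High against adult (-1.35, SE 0.34, limma adjusted p = 0.0084), and in Low against adult it differed by -0.89 (limma adjusted p = 0.0051) without passing the fold limit. *Rb1cc1* differed by 0.62 between High and Low with overlap (limma adjusted p = 0.07).

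The counts of these lists stand beside the 28.2% of all genes called higher and 9.61% called lower between High and Low. Of 6 genes for cargo receptors and mitophagy, the removal of mitochondria, 3 were called higher and 1 lower in High against Low, with a median of 1.15. The largest rise was in the mitophagy receptor *Bnip3l* (2.17) and the only fall in its relative *Bnip3* (-1.31). *Calcoco2* (1.59), 1 of the 3 called higher, was above background in no Low sample. Its mean in High, 81.8, lay within the background of the Low samples, 69.2 to 117 in signal, so that no direction is assured. Of 9 genes for fusion with the lysosome and later steps, 6 were called higher and 0 lower, with a median of 1.21. *Lamp1*, a protein of the lysosomal membrane, rose the most (2.59), and *Vps4a*, an ATPase of the endosomal membrane-remodeling machinery, had the lowest value (-0.47, with overlapping groups). Among the 6 called, *Stx18* (1.10) was above background in no Low sample. Its mean in High, 67.5, lay below the background of the Low samples, 69.2 to 117 in signal, so that no direction is assured. *Epg5* (2.27), also called, was above background in 1 of 4 Low samples. Of 10 upstream signaling genes, 3 were called higher and 2 lower, with a median of 0.35, from *Akt2* (-1.29) to *Rala* (2.75). Over the 27 genes, 12 were called higher and 3 lower between High and Low, 0 were called between Low and adult, and 10 were called higher and 3 lower between High and adult. The higher calls in both comparisons with High include *Calcoco2*, which was above background in no Low or adult sample. Those between High and Low also include *Stx18*, above background in no Low sample. Of all genes, 8.05% were called higher and 2.73% lower between Low and adult, and 29.2% and 7.66% between High and adult. In Low against adult 6 of the 27 passed an adjusted p under 0.05 in limma with no fold limit, where 26.1% of all genes passed.

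**Figure D5:**
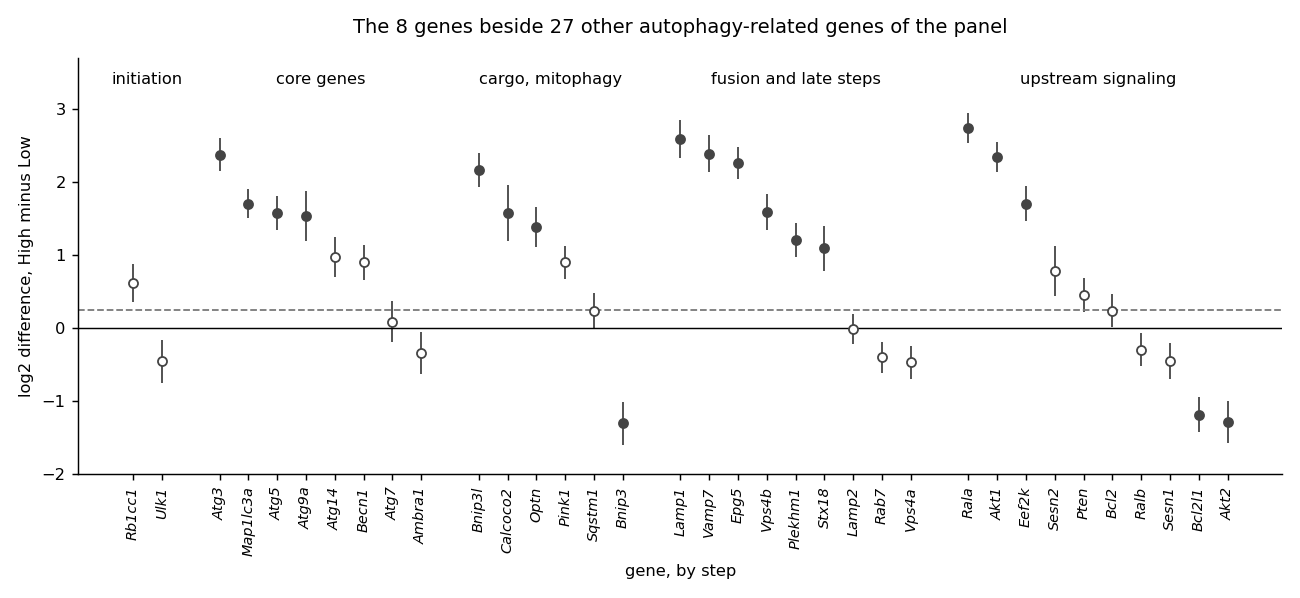
Log2 difference between High and Low (n = 4 each) for the 8 core genes and 27 other autophagy-related genes, grouped by step and sorted within each group; bars are standard errors, filled points calls and the dashed line the median of all genes. Each step but initiation holds both called and uncalled genes, and values run from -1.31 for *Bnip3* to 2.75 for *Rala*.

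The panel genes with the profile most like each member were found over the 11 kept samples, among 755 genes, by the root mean square difference of log2 values after each gene's mean was removed. For *Atg5* these were *Ptprc*, which encodes CD45, at 0.11 and *Il10rb*, a chain of the interleukin-10 receptor, at 0.12, against an SD of 0.88 for *Atg5* itself. *Becn1* was nearest to *Tnfsf12* (0.11) and to the phagocyte lysosomal gene *Cd68* (0.12). *Atg7* was nearest to *Tle3* (0.16) and *Ifi30* (0.16), and *Map1lc3a* to *Ddx58* (0.16), an RNA sensor, and *Cox5b* (0.17), of the respiratory chain. *Atg3* was nearest to *Dlg1* (0.18) and *Msn* (0.19), which rose by 2.32 and 2.37 between Low and High. *Atg9a* was nearest to *Pik3cg* (0.19) and *Ptprc* (0.25), and *Ambra1* to *Nfkb1* (0.19) and *Tnfrsf12a* (0.20). For *Atg14* they were *Hif1a* at 0.31 and *Cflar* at 0.34, from a profile whose 4 Low values were at background. Among the members, *Atg5* and *Map1lc3a* were the closest pair (0.27), followed by *Ambra1* and *Atg7* (0.31).

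In the RefSeq annotation of GRCm38.p6 the members lie on 7 chromosomes, with *Ambra1* at chr2:91730138-91918849 and *Map1lc3a* at chr2:155276364-155278073, *Becn1* at chr11:101288258-101302286, *Atg14* at chr14:47540893-47568434 and *Atg9a* at chr1:75180861-75192010. The conjugation genes lie at chr6:114643127-114860604 (*Atg7*), chr16:45158829-45188538 (*Atg3*) and chr10:44268322-44364299 (*Atg5*). Promoter windows of 250 bases before a start site were read for 6 members, *Ambra1*, *Atg14*, *Atg9a*, *Atg7*, *Atg3* and *Atg5*. Each of 6 motifs was searched on both strands. CACGTG, the E-box at the center of the element that lysosomal and autophagy regulators of the TFEB family bind, was found in 3 of the 6 windows, in *Atg3* at 2 places and in *Atg5* and *Atg7* at 1 each, and in 6.02% of all 32851 windows of the table. The stretches that hold it are shown because the 3 genes act in the same conjugation step and differed in their measured change, with CACGTG in capitals, 5′ to 3′ on the plus strand.
Atg3, chr16:45158719-45158778: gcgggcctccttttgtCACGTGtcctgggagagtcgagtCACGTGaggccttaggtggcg
Atg5, chr10:44268279-44268338: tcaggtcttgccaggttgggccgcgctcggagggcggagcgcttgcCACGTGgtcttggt
Atg7, chr6:114670937-114670996: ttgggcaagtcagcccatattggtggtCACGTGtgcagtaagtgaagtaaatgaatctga
The *Atg3* stretch lies before the annotated gene, at 110 to 51 bases before its start. That of *Atg5* ends at the start site of the window, which lies 17 bases inside the annotated gene, and that of *Atg7* is by a start site 27969 bases inside it. *Atg3*, called higher in High, and *Atg7*, whose groups overlapped, thus both hold the motif, and *Atg9a*, called higher, does not hold it in its window. CCGGAA, the core of ETS factor sites, was in the *Atg3* window and in 12% of all windows. TGACTCA, the AP-1 site, and TGTTTAC, a FOXO site, were in none of the 6 windows and in 4.46% and 3.17% of all. CCAAT was in the windows of *Atg7* and *Atg9a* (33.8% of all) and GGGCGG in those of *Atg14*, *Atg3* and *Atg5* (32.7% of all). A match describes the letters and does not show that a factor binds.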

How the data were processed

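Per the labels and the study's methods, microglial RNA was measured with the Neuroinflammation panel of the NanoString nCounter (770 genes, 8 negative and 6 positive control probes). The authors deposited 1 signal value per gene and sample, the count multiplied by a factor of the sample from the 13 housekeeping genes, and the control probes as counts. The sources used here do not name the nSolver version. Each of the 12 columns was mapped to a sample. Division by the factor gave values whole to within 0.1 for 99.8% of all gene values (97.9% in sample 11). The methods describe freshly isolated cells and adult littermates, but not which samples shared mice or litters, so p-values measure the spread between these samples.

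Each pair of groups was compared with limma 3.58.1 in R 4.3.3 on log2(signal + 1), without a filter, with Benjamini-Hochberg adjustment over 770 genes, so that a fold change understates that of low genes. A call needed both p under 0.01 and a log2 difference beyond 1. Simulated data were used to test the script. Ratios of members were compared by exact permutation over samples. At most 49 of 770 genes had equal counts in 2 samples of a group. Alternatives covered the pseudocount (0.1 and 20), a mean value of at least 50, the scaling, the test, sample 11 and each sample left out. Named beside the 8 members are the 2 genes of most similar profile, *Ulk1*, *Rb1cc1*, and genes at the ends of each list. Marker and housekeeping genes, and list genes at or near background, were named after their values were seen. Members, lists and tests were chosen with earlier results of these data known. Gene positions and promoters are from RefSeq.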

Additional observations from a re-analysis of the deposited data

Results flagged for a closer look

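Adult sample 11, which the comparisons leave out because the authors marked it as excluded for poor quality, stood above all 3 kept adult samples for each of the 8 genes. Its signal was 4090.04 for *Atg3*, 1633 for *Atg5*, 1498 for *Atg9a* and 1336 for *Becn1*, each above the highest P-ERK1/2 High sample. *Map1lc3a*, at 681, was also above all High samples, and *Atg7* (286) was above the highest of them by a small margin. *Ambra1* (267) and *Atg14* (146) lay within the range of the High samples. The largest ratio to the mean of the kept adult samples was 16.2 for *Atg9a* and the smallest 1.18 for *Ambra1*. In this sample the positive control probes had a geometric mean of 286 counts, against 954 to 1460 in the other 11, and 16 values were listed at 1. It held 1464449 counts and 688 genes above background, against at most 326575 counts and 560 genes in the kept adult samples and at most 1539936 counts and 673 genes in the High samples. The part of RNA quality in these values was not tested.

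No gene had a single High or Low sample far enough from the other 3 to pass Dixon's 95% limit for 4 values, in 16 groups tested.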

How the results depend on the processing

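Of the 4 members called between P-ERK1/2 High and Low, *Atg3* was called under every alternative, and the other 3 under all but scaling to the total and, for *Atg9a*, a plain test with unequal variances. The number of members called between High and Low was 4 as deposited, 2 with scaling to the total of all genes, 8 with no scaling or with positive-control scaling, and 6 with background subtracted, where *Atg9a* stood at 3.33, *Map1lc3a* at 2.80, *Atg14* at 4.05 and *Atg7* at 1.09. *Ambra1* turned to 0.43 with the 6 most stable housekeeping genes, 1.32 with no scaling, 1.63 with positive-control scaling and 0.36 with background subtracted. *Atg7* turned to -0.16 with median-of-ratios scaling, -0.20 with quantile normalization and -0.93 with the total, under which *Becn1* stood at -0.12 and *Atg14* at -0.032. With each sample left out, 4 to 6 members were called, and *Atg7* ran from -0.14 to 0.28. The number of pairs of members whose groups were apart was 17 to 19 with a sample left out, which is no sign of stability, since leaving a sample out cannot make groups overlap. It was 20 with background subtracted.

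Between Low and adult, 0 members were called by limma with a pseudocount of 20, where 2 had an unadjusted p under 0.05, and 0 to 1 with a sample left out. The members near 0 changed sign. With the total, *Atg5*, *Becn1* and *Map1lc3a* stood at -0.18, -0.19 and -0.15. With quantile normalization *Atg5* and *Becn1* stood at -0.099 and -0.018. With no scaling *Atg5*, *Atg9a*, *Becn1* and *Map1lc3a* stood at -0.64, -0.30, -0.66 and -0.61, and with positive-control scaling at -0.60, -0.26, -0.62 and -0.57. *Map1lc3a* stood at -0.11 with background subtracted. With sample 11 added, *Atg5*, *Atg9a*, *Becn1* and *Map1lc3a* stood at -0.45, -0.46, -0.24 and -0.30. *Atg7* ran from -0.11 to 0.056 with a sample left out.

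Between High and adult, 5 members were called, 3 with the total, all of them lower (*Ambra1*, *Atg14* and *Atg7*), and 0 by limma with sample 11 added, where 2 members had an unadjusted p under 0.05. *Becn1* was not called under median-of-ratios scaling (0.72), and under quantile normalization *Becn1* (0.28) and *Atg5* (0.93) were not called and *Ambra1* (-1.04) was called lower. *Atg7* turned to -0.31 with median-of-ratios scaling, -1.34 with the total, -0.39 with quantile normalization and -0.13 with sample 11, and ran from -0.165 to 0.25 with a sample left out. *Becn1* turned to -0.32 with the total. *Ambra1* turned to 0.21 with the 6 housekeeping genes, 0.32 with no scaling and 0.67 with positive-control scaling, and *Atg14* to 0.53, 0.64 and 0.99 and to 0.71 with background subtracted. The cause was not tested. With a sample left out, 4 to 5 members were called.

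Positive-control scaling and background subtraction were chosen after seeing the data. A count test on the recovered counts was planned and was not run, since the table's control probes carry no factor. No paired analysis was made, because the sources used here do not say which High and Low samples came from the same mice. The sample numbers run over the whole series and do not tell. Depth limits the Low and adult samples: 410 to 484 and 417 to 560 genes exceeded background there, against 589 to 673 in High, and *Atg14* in Low has only an upper bound.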
